A study of Mus musculus with 8 samples.

Results

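The tripartite motif (TRIM) genes were followed in mouse dendritic cells with and without lipopolysaccharide (LPS), a Gram-negative bacterial membrane component sensed through Toll-like receptor 4. The members were all genes on the arrays whose symbol is Trim followed by digits and an optional letter. This gave 64 of the 20887 genes with a named probe, on 92 probes. A RefSeq gene table holds 68 such symbols, and Trim5, Trim23, Trim30c and Trim43a had no matched probe and were not analysed here. The cells came from the bone marrow of female C57BL/6 mice. The 4 immature samples had been cultured with GM-CSF (10 ng/ml) and IL-4 until day 6. The 4 LPS samples were such immature cells given LPS (50 ng/ml) overnight and collected on day 7. All samples share the culture in GM-CSF and IL-4, and no sample was kept to day 7 without LPS, so LPS and the extra night cannot be told apart. The labels do not say whether replicates were separate animals or cultures, so p-values measure only the spread between these samples, which may be technical.

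Most TRIM proteins are RING-type ubiquitin ligases: a RING finger recruits a ubiquitin-charged E2 enzyme, B-boxes and a coiled coil build dimers, and a C-terminal domain chooses the target. Many regulate the sensing of viruses and bacteria upstream of interferon and NF-kB, and several block viruses directly. A large cluster of relatives with a PRY-SPRY domain (the Trim5, Trim12, Trim30 and Trim34 genes) has expanded in the mouse and is known for its induction by interferon, while others act on chromatin, microtubules or muscle.

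The sequences shown here are starts of cluster relatives on chromosome 7 that rose after LPS, 6 chosen because they hold a shared element and 1 because it does not. The element searched was the core of the interferon-stimulated response element, bound by factors of the interferon response: GAAA, a pair of any bases, then GAAA, on either strand. Each line runs 5′ to 3′ on the strand of the gene, from 50 bases before the start to 50 after it, with the match in capitals. Sequences are from RefSeq, build GRCm38.p6.
Trim30a: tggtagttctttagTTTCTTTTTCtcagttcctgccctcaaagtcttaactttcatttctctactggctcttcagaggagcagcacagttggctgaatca
Trim30d: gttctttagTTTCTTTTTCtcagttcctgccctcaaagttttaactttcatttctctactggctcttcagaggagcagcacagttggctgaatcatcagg
Trim34a: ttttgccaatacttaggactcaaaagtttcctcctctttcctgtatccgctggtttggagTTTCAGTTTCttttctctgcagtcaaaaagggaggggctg
Trim12a: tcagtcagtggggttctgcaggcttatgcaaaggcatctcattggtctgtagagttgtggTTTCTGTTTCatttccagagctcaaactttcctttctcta
Trim12c: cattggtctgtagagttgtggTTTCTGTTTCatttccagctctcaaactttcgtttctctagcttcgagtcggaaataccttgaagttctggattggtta
Trim21: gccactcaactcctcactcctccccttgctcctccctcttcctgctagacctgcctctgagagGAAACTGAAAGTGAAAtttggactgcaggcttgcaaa
Trim34b: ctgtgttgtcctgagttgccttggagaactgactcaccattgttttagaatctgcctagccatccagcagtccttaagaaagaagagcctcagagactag
Trim30a lies at chr7:104465144-104465243, Trim30d at chr7:104507800-104507899, Trim12a at chr7:104315446-104315545, Trim12c at chr7:104353300-104353399 and Trim21 at chr7:102565433-102565532, all on the minus strand. Trim34a at chr7:104244407-104244506 and Trim34b at chr7:104329421-104329520 are on the plus strand. The first 6 hold the core, and Trim34b, shown for contrast, holds no match, as does Trim6, which is not shown. In Trim21 a pair of cores overlaps. The table gives Trim30a a second start, where a core begins 2 bases after it, and the start shown is the one with the match at −36.

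Promoters of 300 bases (250 before and 50 after the start) were found in the table for 49 of the 64 members. The core was present in 8 of these 49 (16.3%), against 3.99% of all 27025 genes in the table and 3.44% of all 32851 promoters. Among members called higher after LPS (below), 6 of 15 with a promoter held it (40.0%), against 5.39% of all called genes that rose. All 6 belong to the chromosome 7 relatives, where Trim6, Trim30b and Trim34b held no match, and 0 of 6 risen members outside that group held it. Among members called lower, 0 of 5 held it. The remaining pair, Trim2 and Trim26, did not pass the test. In Trim26 an overlapping pair of cores begins at −160 bases from the start. The starts are related in sequence: those of Trim30a and Trim30d are identical at 276 of 295 aligned bases and those of Trim12a and Trim12c at 247 of 260, so these matches are not separate occurrences. Cores of the gamma-activated site (TTC, any 3 bases, GAA, either strand) were in 5 of 49 member promoters (10.2%), against 9.55% of all genes. A kappa-B site (GGGA, any base, TTTCC, either strand) was in 0 of 49, against 0.466% of all genes. These matches describe letters in this window only.

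**Figure D1:**
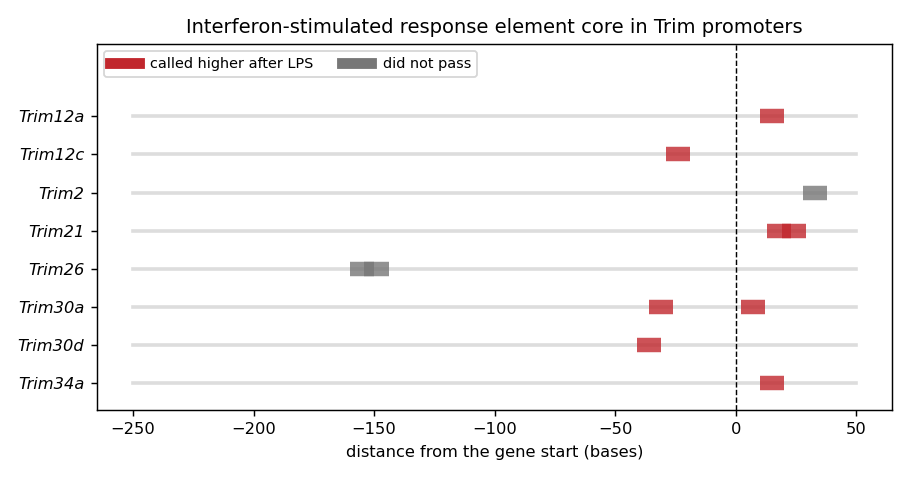
Position of each match to the interferon-stimulated response element core in Trim promoters, in bases from the gene start (x axis). Each grey line is the 300 bases searched. Red marks genes called higher after LPS and grey marks those that did not pass. In the 6 red genes the matches begin between −41 and 19 bases from the start.

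Each array held 59305 spots outside the controls, of which 47.5% to 51.3% were well above background. The 75th percentile of the signal lay between 392 and 491, and no spot was saturated. The file headers place all arrays on 1 slide, the immature samples in a different row from the LPS samples, so slide row and treatment cannot be told apart. The number of arrays limits the precision. Immature replicate 3 stood farthest from the rest of its group. The spread of its gene-wise differences from the other immature arrays (scaled median absolute deviation) was 0.288 to 0.438 log2. Between replicates 1 and 2 the spread was 0.118. Replicate 4 was at 0.250 from replicate 1, 0.247 from replicate 2 and 0.288 from replicate 3. All 12 dendritic cell markers listed were above background on all arrays, with 6 higher after LPS, Zbtb46 and Flt3 among them, and 3 lower (Itgax, Cd74 and H2-Aa). All 9 neutrophil markers with a probe fell, their summed level going from 744 to 880 times the 75th percentile on immature arrays to 248 to 454 on LPS arrays. The summed macrophage level was 152 to 170 and 335 to 447, with 2 markers higher and 4 lower, and the plasmacytoid level was 124 to 145 and 276 to 306, with 1 of 5 higher. Monocyte markers summed to 308 to 372 and 249 to 299, with 3 of 6 lower. Megakaryocyte markers summed to 161 to 202 and 297 to 352, with 2 of 4 higher and 1 lower. Mast cell and basophil markers summed to 6.88 to 11 and 8.87 to 10.8, with 1 of 6 higher and 3 lower. B cell, T cell and natural killer cell markers summed to at most 2.79, 5.25 and 0.901. The part of such cells in the results on Trim genes was not tested. In these bulk samples a change in the number of cells of a type and in RNA per cell cannot be told apart.

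Values below are levels, meaning log2 processed signals relative to the 75th percentile of the array, and differences are LPS minus immature, with the SE (n = 4 per group). A gene was tested when all 4 arrays of either group, or of both, detected its brightest probe well above background. Tests are limma's, two-sided, with p-values adjusted over all 12706 genes tested and called at 0.05.

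Of the 64 members 41 were tested. After LPS 18 rose (43.9%), 6 fell (14.6%) and 17 did not pass. The Trim5/Trim30 cluster relatives, 10 of the tested members, gave 9 of the 18 rises and 0 of the falls. The family shares therefore lean on this group. Of all tested genes 31.4% rose and 24.7% fell. The median difference over tested members was 0.27, against 0.06 over all tested genes, and the median absolute difference was 0.53 against 0.39. Of the risen members 10 changed by at least 1 log2 unit, as did 4 of the fallen ones. The 4 LPS and 4 immature arrays did not overlap for 23 of the 41 members, against 52.4% of all tested genes. As another set of RING ligase genes, 23 of 62 tested Rnf genes rose (37.1%) and 11 fell (17.7%), with a median of 0.19. The split depends on the scaling: with no scaling between arrays, which moves the median of all genes by −0.21, 15 members rose and 9 fell, and 35.3% of all called genes were risen ones, against 56.0% here. Scaling to the array median moved it by −0.17, with 16 members higher and 7 lower and 38.5% of all called genes risen.

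**Figure D2:**
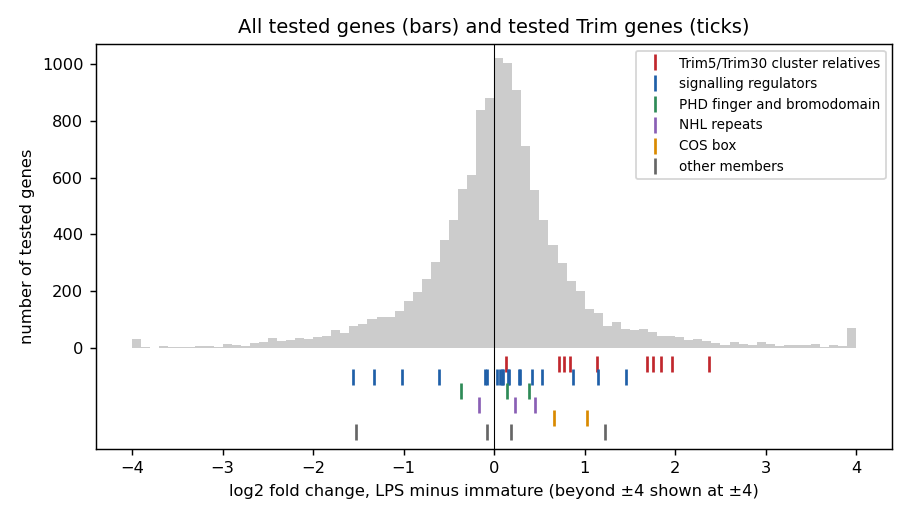
Distribution of the log2 fold change (LPS minus immature, x axis) over all 12706 tested genes (grey bars, y axis in genes), with the 41 tested Trim genes as ticks below 0, one row per group. The ticks of the Trim5/Trim30 cluster relatives lie to the right of 0, and 9 of 10 passed the test.

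The Trim5/Trim30 cluster relatives were the group that moved together. Of 10 tested, 9 rose and 0 fell, with a median of 1.41 over the 10, and Trim68 did not pass. In the order of the RefSeq table the block on chromosome 7 runs Trim6, Trim34a, Trim5, Trim12a, Trim34b, Trim12c, Gm38525, Trim30b, Trim30c, Trim30a and Trim30d, and every one of its 8 measured Trim genes rose. Of all 12 tested members on chromosome 7, 10 rose and 1 fell.

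Trim6 builds free ubiquitin chains that activate the kinase IKKε of the interferon response. Its level was −3.35, −3.32, −2.36 and −2.65 on immature replicates 1 to 4 and −0.62, −0.45, −0.58 and −0.53 on LPS replicates 1 to 4. The groups were far apart, and immature replicates 3 and 4 were the higher of their group. The increase was 2.37 ± 0.22 (5.18-fold, limma adjusted p = 5.69e-05), or 1.61 with the normexp background correction, which adds an offset of 50 to every signal. It rests on 1 of the 3 Trim6 probes, since the others were above background on no array.

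Trim30a is known to damp Toll-like receptor signalling by promoting the loss of Tab2 and Tab3, and Trim30d is its neighbour in the block. The level of Trim30a was 1.64, 1.51, 1.63 and 1.60 on the immature arrays and 3.40, 3.50, 3.25 and 3.60 on the LPS arrays. That of Trim30d was 1.62, 1.67, 1.73 and 1.69, then 3.71, 3.74, 3.38 and 3.74. In both genes the immature arrays lay close together and LPS replicate 3 was the lowest LPS array. Trim30a rose by 1.84 ± 0.09 (3.59-fold, limma adjusted p = 1.99e-06) and Trim30d by 1.97 ± 0.10 (3.91-fold, limma adjusted p = 2.04e-06). Trim30b, measured by a dim probe, rose by 1.14 ± 0.26 from −3.09, −3.21, −3.30 and −3.61 to −1.98, −1.98, −2.96 and −1.73 (limma adjusted p = 0.00556). Its LPS replicate 3 came closest to the immature arrays, and with the normexp correction the increase was 0.59.

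Trim34a and Trim34b are relatives of human TRIM34 in the same block, with Trim5 and Trim12a between them. Trim34a was at 0.97, 0.94, 1.14 and 0.97 on immature arrays and at 2.76, 2.86, 2.42 and 2.73 on LPS arrays. Trim34b was at −2.90, −2.81, −2.49 and −2.54, then at −0.69, −0.75, −1.37 and −0.91. The groups of both were well separated, with LPS replicate 3 again lowest. Trim34a rose by 1.69 ± 0.11 (3.22-fold, limma adjusted p = 7.96e-06) and Trim34b by 1.75 ± 0.17 (3.37-fold, limma adjusted p = 6.25e-05), or by 1.15 with the normexp correction.

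Trim12a and Trim12c are mouse relatives of human TRIM5, which recognises retroviral capsids. They rose by 0.72 ± 0.10 (1.65-fold, limma adjusted p = 0.000577) and 0.77 ± 0.16 (1.71-fold, limma adjusted p = 0.00414). The other probes of Trim12c gave increases of up to 1.37. Trim21, a cytosolic antibody receptor that sends antibody-coated viruses to the proteasome, was at 1.66, 1.56, 1.39 and 1.46 on immature arrays and 2.39, 2.60, 1.99 and 2.42 on LPS arrays. The groups did not overlap, and the increase was 0.83 ± 0.13 (1.78-fold, limma adjusted p = 0.000995). Trim68 overlapped between the groups (0.13 ± 0.09, limma adjusted p = 0.262, 95% interval −0.08 to 0.34).

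LPS replicate 3 was the lowest LPS array for 8 of the 9 risen cluster relatives, all but Trim6, and for 2 of the 9 other risen members. Over all genes called higher it was the lowest in 32.9%. It was the lowest for 8 of the 12 risen genes of the interferon list described below. Without that array all 9 cluster relatives still rose, with a median of 1.78 against 1.69 with it. In the other alternatives all 9 were called higher too, with medians from 1.15 to 1.74.

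The cluster genes are relatives, and their transcripts were not compared here. Probe sequences were not used either, so how far a probe of one gene also reads its relatives was not tested. Their values should be read as those of the named probes.

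**Figure D3:**
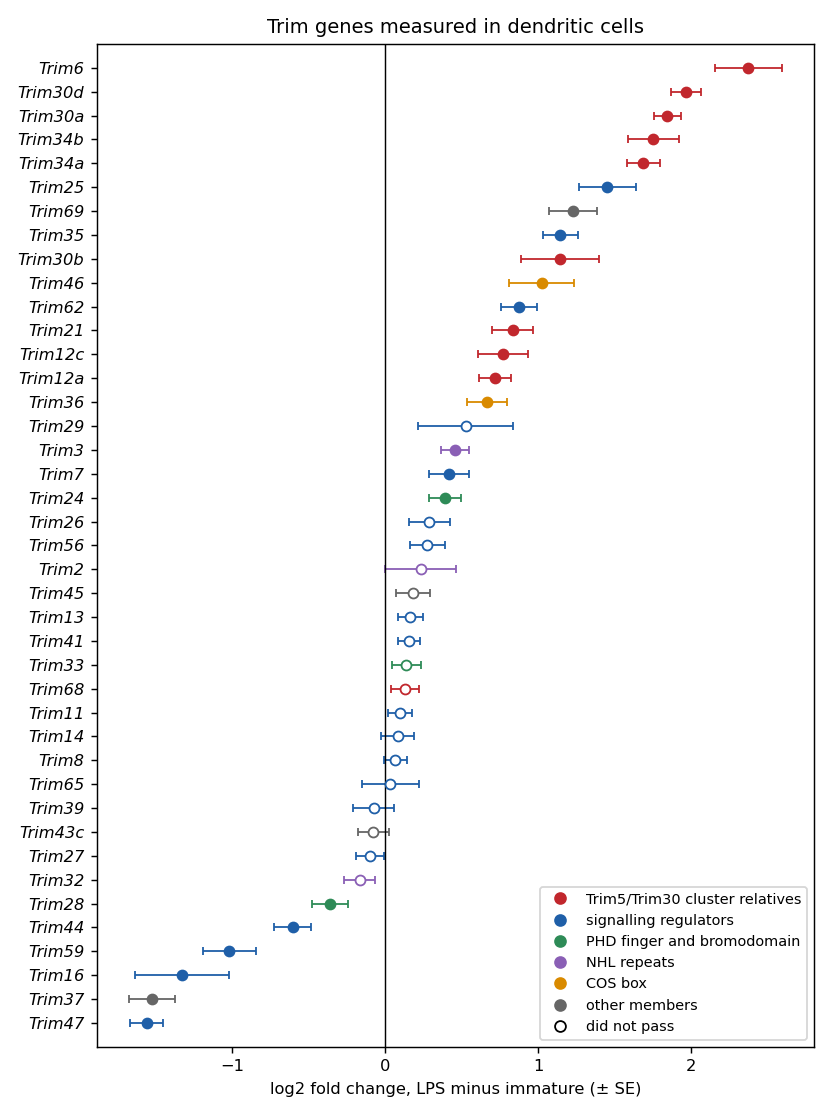
Log2 fold change (LPS minus immature, x axis) with its SE for each of the 41 tested Trim genes, ordered by size and coloured by group. Filled points passed the test (18 higher, 6 lower) and open points did not. The 5 genes at the top, from Trim6 to Trim34a, are all cluster relatives.

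The regulators of innate signalling did not move as a group. Of 23 members 19 were tested, of which 4 rose (21.1%), 4 fell (21.1%) and 11 did not pass, with a median of 0.10. Of all tested genes 31.4% rose and 24.7% fell, with a median of 0.06. The share called either way was thus below that of all tested genes (42.1% against 56.1%). The risen ones were Trim25, Trim35, Trim62 and Trim7, and the fallen ones Trim47, Trim16, Trim59 and Trim44.

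Trim25 attaches ubiquitin chains to the RNA sensor RIG-I and is itself a ligase for the ubiquitin-like protein ISG15. Its level was 5.08, 5.01, 5.89 and 5.53 on immature arrays and 6.81, 6.90, 6.83 and 6.77 on LPS arrays. The LPS arrays lie close together, while immature replicates 3 and 4 lie above 1 and 2. Trim25 rose by 1.45 ± 0.19 (2.74-fold, limma adjusted p = 0.000303), and by 1.62 without immature replicate 3. Trim35, known to act on the transcription factor IRF7, rose by 1.14 ± 0.11 (limma adjusted p = 8.54e-05), with 0.95 on its other probe. Trim62, which works with CARD9 in antifungal signalling, rose by 0.88 ± 0.12 (limma adjusted p = 0.000406).

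Trim7, named for its binding of glycogenin, rose by 0.41 ± 0.13 (limma adjusted p = 0.0260), but LPS replicate 4 overlapped with the immature arrays. The call was lost with the arrays scaled to their median (0.24, limma adjusted p = 0.166) or unscaled (0.21, limma adjusted p = 0.224). It was also lost without immature replicate 2 (0.40) or 4 (0.39) and without LPS replicate 1 (0.31), 2 (0.40) or 3 (0.41). Over all alternatives its limma adjusted p ran from 0.00327 to 0.224. Its other tested probe rose by 0.71.

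Trim47 went from 1.11, 1.12, 1.31 and 1.47 to −0.25, −0.35, −0.18 and −0.45. The groups were well separated. It fell by 1.56 ± 0.11 on the log2 scale (2.95-fold lower, limma adjusted p = 1.16e-05), and its second probe gave −1.39. Trim16, a PRY-SPRY protein of the autophagy of damaged membranes, went from −1.85, −1.70, −2.08 and −1.62 to −3.95, −3.47, −2.63 and −2.52. LPS replicates 1 and 2 were lower than 3 and 4, and the estimate was the least precise of the called members (−1.33 ± 0.31, limma adjusted p = 0.00648). Its second probe gave −2.21, and with the normexp correction the change was −0.55.

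Trim59, a membrane-anchored member, went from 2.25, 2.29, 2.46 and 2.85 to 1.55, 1.75, 1.35 and 1.12. It fell by 1.02 ± 0.17 (2.03-fold lower, limma adjusted p = 0.00132), and both of its probes were called lower. Trim44, which lacks a RING finger and carries a ubiquitin-binding zinc finger of the kind found in deubiquitinases, went from 4.16, 4.19, 3.81 and 3.78 to 3.32, 3.35, 3.30 and 3.55. The LPS arrays all lay below the immature ones, and the fall was 0.61 ± 0.12 (1.52-fold lower, limma adjusted p = 0.00307).

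**Figure D4:**
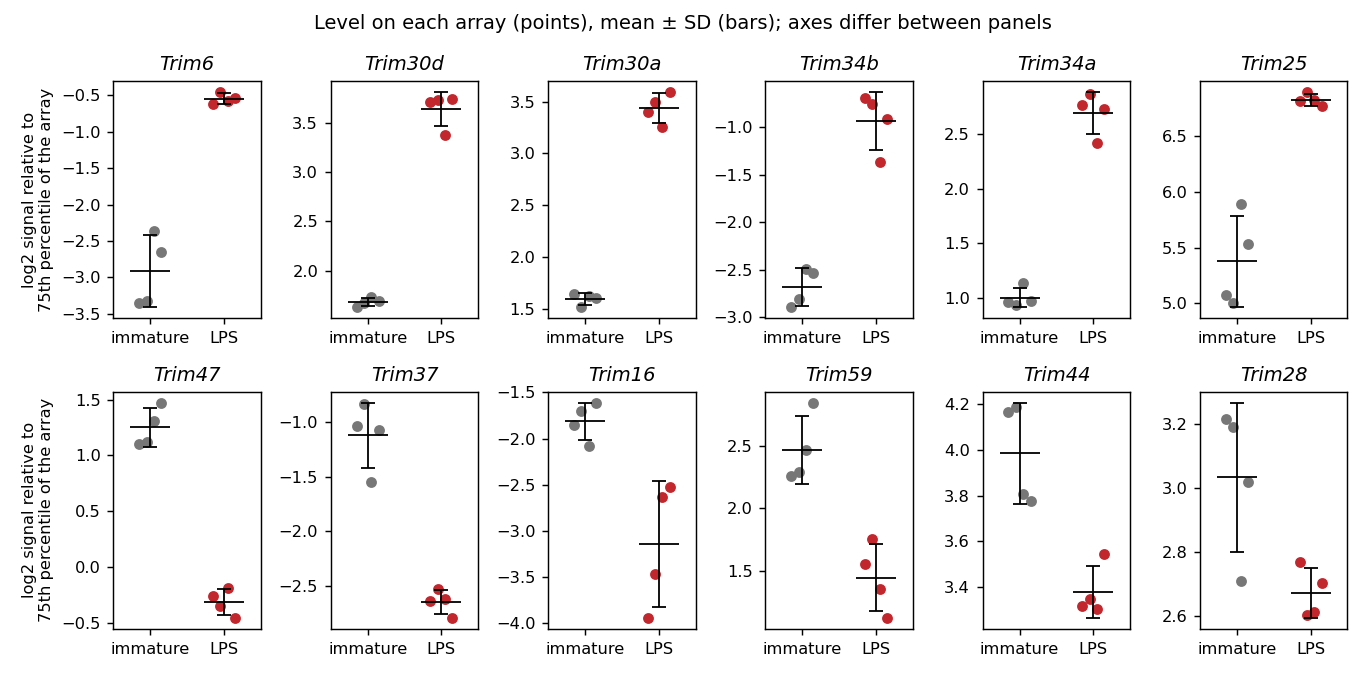
Level of 12 Trim genes on each array (points, log2 signal relative to the 75th percentile of the array), immature in grey and LPS in red, with mean ± SD as bars (n = 4 per group). The upper row shows the 6 largest increases among members above background on all arrays and the lower row the 6 decreases. Only Trim28 has overlapping groups.

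Among signalling regulators that did not pass, the level of Trim56, which acts with the DNA-sensing adaptor STING, was 2.11, 2.10, 2.41 and 2.10 on immature arrays. On LPS arrays it was 2.45, 2.59, 2.21 and 2.57. Immature replicate 3 and LPS replicate 3 make the groups overlap (0.27 ± 0.11, limma adjusted p = 0.0719). Without immature replicate 3 the difference was 0.35 (limma adjusted p = 0.0199) and without LPS replicate 3 it was 0.36 (limma adjusted p = 0.0262), within a range of 0.0199 to 0.675 over all alternatives. Trim29, which has no RING finger, spanned −1.63 to −0.12 on immature arrays and −0.55 to −0.23 on LPS arrays. Its difference was 0.53 ± 0.31 (limma adjusted p = 0.180), and 0.79 without immature replicate 3 (limma adjusted p = 0.0231, range 0.0231 to 0.466). Trim41 had groups that did not overlap (0.15 ± 0.07, limma adjusted p = 0.0945). It passed without immature replicate 3 (0.18, limma adjusted p = 0.0487, range 0.0487 to 0.853).

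Trim26, known to act on IRF3, was at 2.98, 2.94, 2.46 and 2.56 on immature arrays and 3.03, 2.99, 2.91 and 3.17 on LPS arrays. Immature replicates 3 and 4 were lower than 1 and 2, and the latter overlap with the LPS arrays (0.29 ± 0.13, limma adjusted p = 0.0983, 95% interval −0.02 to 0.60). Trim14, a mitochondrial adaptor of MAVS signalling, was dim at −3.05, −3.15, −3.05 and −2.95, then −3.10, −3.12, −2.98 and −2.68. The groups overlap (0.08 ± 0.11, limma adjusted p = 0.549, 95% interval −0.17 to 0.33). Trim13, anchored in the endoplasmic reticulum, was at 0.62, 0.73, 0.84 and 0.74, then 0.76, 1.00, 0.90 and 0.94 (0.16 ± 0.08, limma adjusted p = 0.120).

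Trim8, which modifies the kinase TAK1, and Trim27, a repressor of NF-kB signalling, had overlapping groups. Trim8 was at 2.98, 2.90, 2.98 and 2.90 on immature arrays and 3.01, 3.08, 2.87 and 3.06 on LPS arrays. Its difference of 0.07 ± 0.07 has a 95% interval of −0.10 to 0.23 (limma adjusted p = 0.474). Trim27 was at 3.94, 3.97, 3.62 and 3.83, then 3.81, 3.73, 3.77 and 3.64, with an interval of −0.32 to 0.12 around −0.10 (limma adjusted p = 0.393). The intervals of both hold 0, and neither reaches a change of 0.5. Trim11, Trim65, a partner of the RNA sensor MDA5, and Trim39 were at 0.10, 0.03 and −0.08, and the other tested Trim39 probe gave 0.10.

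The transcriptional regulators with a PHD finger and a bromodomain gave 1 rise, 1 fall and 1 gene that did not pass among 3 tested, and Trim66 was not above background. Trim24, a coactivator of nuclear receptors, was at 1.38, 1.33, 1.32 and 1.14 on immature arrays and 1.84, 1.71, 1.75 and 1.43 on LPS arrays. The groups did not overlap, though LPS replicate 4 came close to immature replicate 1. Trim24 rose by 0.39 ± 0.11 (limma adjusted p = 0.0130), and by 0.35 on its second probe. With the arrays scaled to their median the difference was 0.21 (limma adjusted p = 0.156) and unscaled 0.18 (limma adjusted p = 0.209, range 0.00327 to 0.209 over the alternatives).

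Trim28, the corepressor that silences retroelements with KRAB zinc finger proteins, was at 3.22, 3.19, 2.71 and 3.02 on immature arrays and 2.77, 2.60, 2.61 and 2.70 on LPS arrays. The groups overlap through immature replicate 3. Trim28 fell by 0.36 ± 0.12 (1.29-fold lower, limma adjusted p = 0.0308). The call was lost without immature replicate 1 (−0.30), 2 (−0.31) or 4 (−0.37) and without LPS replicate 2 (−0.34), 3 (−0.34) or 4 (−0.37). The limma adjusted p ran from 0.00184 to 0.125 over the alternatives. Trim33, which acts on SMAD signalling, was at −0.84, −0.93, −0.57 and −0.78, then −0.68, −0.60, −0.54 and −0.76, and did not pass (0.14 ± 0.10, limma adjusted p = 0.253).

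Among genes that work with Trim28 on retroelements, 3 of 9 fell (33.3%) and 1 rose (11.1%), with a median of −0.05. Of all tested genes 24.7% fell and 31.4% rose, with a median of 0.06. The heterochromatin protein gene Cbx5 fell by 1.05 ± 0.17 (limma adjusted p = 0.00120) and Morc2a by 0.56 ± 0.16 (limma adjusted p = 0.0159). For Setdb1, the histone methyltransferase recruited by Trim28, the groups overlapped (−0.20 ± 0.09, limma adjusted p = 0.0868).

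Members with NHL repeats bind RNA or act on the cytoskeleton. Trim3 rose by 0.45 ± 0.09 (1.37-fold, limma adjusted p = 0.00321), with 0.55 on its other probe. With no scaling the value was 0.25 (limma adjusted p = 0.0627, range 0.00203 to 0.0627). Trim32, mutated in a muscular dystrophy, was at 0.94, 1.19, 1.32 and 1.26 on immature arrays and 1.12, 0.97, 1.08 and 0.89 on LPS arrays. The groups overlap (−0.17 ± 0.10, limma adjusted p = 0.197), and the gene was called lower only with the arrays scaled to their median (−0.34, limma adjusted p = 0.0153) or unscaled (−0.37, limma adjusted p = 0.00949), within a range of 0.00949 to 0.372. Trim2, an axonal ligase, had a wide interval of −0.30 to 0.76 around 0.23 (limma adjusted p = 0.423).

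Of the 8 members with a COS box, a microtubule-binding stretch, 2 were tested and both rose. Of all tested genes 31.4% rose, and 2 genes are too few to describe the group. Trim46, which organises microtubules at the start of the axon, rose by 1.02 ± 0.21 (2.03-fold, limma adjusted p = 0.00355), or by 0.69 with the normexp correction. Trim36 rose by 0.66 ± 0.13 (1.58-fold, limma adjusted p = 0.00307). The other 6, among them the sarcomere genes Trim54, Trim55 and Trim63 and the neuronal genes Trim9 and Trim67, were not tested.

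Of 15 further members 4 were tested. Trim37, a ligase for histone H2A that also restrains centriole formation, was at −1.04, −0.83, −1.55 and −1.08 on immature arrays and −2.64, −2.53, −2.62 and −2.80 on LPS arrays. The LPS arrays lie close together and below the lowest immature array, replicate 3. Trim37 fell by 1.53 ± 0.15 (2.88-fold lower, limma adjusted p = 7.35e-05), or to a difference of −0.87 with the normexp correction. Trim69 was at −4.66, −4.22, −3.84 and −4.32 on immature arrays, where it was above background on 3 of 4, and at −3.07, −2.98, −3.00 and −3.08 on LPS arrays. It was 2.34-fold higher (1.23 ± 0.16, limma adjusted p = 0.000295), or 0.45 log2 higher with the normexp correction. Trim45 (0.18 ± 0.11) and Trim43c (−0.08 ± 0.10) did not pass, at limma adjusted p = 0.203 and 0.529. Their calls appeared only with normexp for Trim45 (0.24, limma adjusted p = 0.0376, range 0.0376 to 0.967) and with no scaling for Trim43c (−0.28, limma adjusted p = 0.0354, range 0.0354 to 0.898).

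The 23 members that were not tested are mostly known for other tissues. On no array were 19 of them above background, including the erythroid gene Trim58, the gut genes Trim31 and Trim40, and Trim38, known to act on Toll-like receptor signalling. The other 4 were above background on 1 or 2 arrays of a group. Trim71, a regulator of stem cells, was at −2.21 on LPS replicate 1 and −1.99 on LPS replicate 3, and between −7.14 and −5.88 on the immature arrays. Its second probe was above background on no array. Trim63 was at −2.30 on LPS replicate 3 alone and Trim52 at −3.47 on immature replicate 4 alone. Trim72, a gene of muscle membrane repair, was just above background on 1 immature array. These levels come from at most 2 of the 4 arrays of a group and do not describe the group.

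By C-terminal domain, 14 of 25 tested PRY-SPRY members rose (56%) and 2 fell (8%), with a median of 0.72. Over all tested genes the shares were 31.4% and 24.7%. The 14 include all 9 risen cluster relatives, so both groupings rest largely on the same genes. The domain apart from the cluster was not tested.

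Agreement between probes could be read for 12 members with more than 1 tested probe. In 10 of them all probes were called the same way, and no member had probes called in opposite directions. In 11 all probes lay on the same side of 0, Trim39 being the exception. The gap between the probes of a gene had a median of 0.15 log2 and reached 0.88 in Trim16. The change of Trim6, Trim2, Trim43c, Trim45 and Trim65 rests on 1 probe each, as no other of their probes was tested. All remaining tested members have only 1 matched probe, so their change also rests on 1. Trim30a, Trim30d, Trim34b, Trim21, Trim25 and Trim37 are among them.

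**Figure D5:**
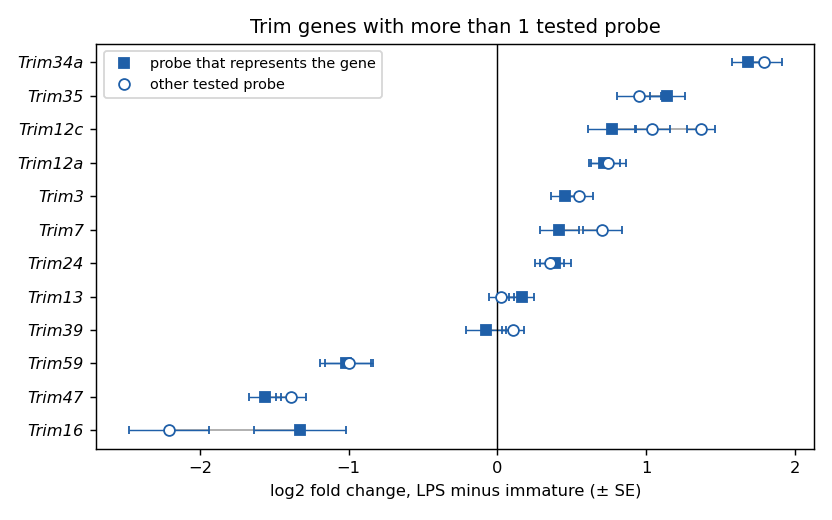
Log2 fold change (LPS minus immature, x axis) with its SE for every tested probe of the 12 Trim genes with more than 1. Squares mark the probe that represents the gene and circles the others. In all but Trim39 the probes of a gene lie on the same side of 0, and the widest gap is that of Trim16.

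TRIM proteins whose genes carry other names were read from a fixed list of 6, of which 4 were tested. Pml, the scaffold of nuclear bodies, was at 1.88, 1.84, 2.18 and 2.11 on immature arrays and 2.99, 3.02, 3.01 and 3.05 on LPS arrays, a rise of 1.02 ± 0.09 (limma adjusted p = 4.9e-05). Mefv, which encodes the inflammasome sensor pyrin, rose by 1.79 ± 0.17 (3.46-fold, limma adjusted p = 7.42e-05), with LPS replicate 3 lowest at 4.34 of 4.34 to 5.05. The muscle gene Cmya5 fell by 1.06 ± 0.29 (limma adjusted p = 0.0137). Bspry was not well above background on the LPS arrays and was at least 3.31-fold lower there, its measured means being −2.55 and −4.91 (limma adjusted p = 0.000330). Mid2 was above background on no array.

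The enzymes that charge and hand over ubiquitin rose in 7 of 16 cases (43.8%) and fell in 3 (18.8%), with a median of 0.10. Over all tested genes 31.4% rose and 24.7% fell, with a median of 0.06. Ube2l6, the E2 that works with Trim25 in ISG15 transfer, went from 1.49, 1.47, 1.39 and 1.33 to 3.81, 3.82, 3.53 and 4.05, a rise of 2.38 ± 0.11 (5.22-fold, limma adjusted p = 1.83e-06). Ube2w, which ubiquitinates protein N termini and primes Trim21, rose by 0.72 ± 0.09 (limma adjusted p = 0.000280). Ube2n, the E2 of chains linked through lysine residue K63, did not pass, with a 95% interval of −0.26 to 0.25 (limma adjusted p = 0.957).

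Of 21 sensors, adaptors and kinases on which TRIM proteins act, 12 rose (57.1%) and 2 fell (9.52%), with a median of 0.50. The shares over all tested genes were 31.4% and 24.7%. The RIG-I gene, listed as Ddx58 and a target of Trim25, rose by 2.23 ± 0.11 (4.69-fold, limma adjusted p = 2.16e-06), and Ifih1, which encodes MDA5, by 2.15 ± 0.11 (4.43-fold, limma adjusted p = 3.03e-06). The STING gene, Sting1, did not pass (−0.16 ± 0.08, limma adjusted p = 0.0954). Of the Trim30a targets Tab2 rose by 0.22 ± 0.08 (limma adjusted p = 0.0472) and Tab3 did not pass (0.01 ± 0.07, limma adjusted p = 0.919).

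In the list of interferon and its signalling, 12 of 14 tested genes rose (85.7%) and 1 fell (7.14%), with a median of 0.89. The shares over all tested genes were 31.4% and 24.7%. Irf7, the amplifier of the interferon response and a target of Trim35, rose by 6.33 ± 0.11 (limma adjusted p = 2.55e-08). Ifnb1, the interferon beta gene, was not well above background on any immature array and was above it on all LPS arrays, at least 3.20-fold higher, with measured means of −5.69 and −3.02 (limma adjusted p = 0.000582).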

How the data were processed

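Total RNA from 8 samples was labelled with Cy3 and hybridised to one-colour Agilent arrays, per the labels. Scanned images were quantified in Agilent Feature Extraction (version 11.0.1.1), per the submitters' processing notes. The deposited processed signals are intensities with the background removed and were not scaled between arrays. The deposited median, local background and background-subtracted intensities served only for alternatives, and the deposited flags (0 or 1) for detection and outliers, per the file headers.

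Spots flagged as outliers were left out (122 to 206 per array). Log2 signals of a probe's spots were averaged and centred on the array's own 75th percentile over spots outside the controls. Probes were named by transcript accession through a RefSeq gene table (27509 of 55681 matched 1 symbol). The files used hold no gene name column, so the planned second route by name was not used. Each gene is represented by its brightest probe. The fit was lmFit and eBayes of limma 3.58.1 in R 4.3.3, with Benjamini-Hochberg adjustment, and it was checked on simulated data. A change where 1 group was not well above background is a bound: the dim group's value is, per array, the higher of its own and of the lowest level well above background. Figures used matplotlib 3.10.9 in Python 3.11.15, and promoter alignments Biopython 1.88.

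Members, groups and lists were chosen with earlier results of these data known. Groups and domains were assigned by symbol. Text names every called member, every tested member that did not pass, the 2 called genes with the largest change in each partner list, and genes fixed by name. Of the latter, 1 is not reported here. Tab2, Tab3, Setdb1, Ube2n and Cmya5 were added after their values were seen. The labels do not say whether replicate numbers pair the samples, so the main fit is unpaired. A planned comparison of protein sequences was not run.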

Additional observations from a re-analysis of the deposited data

Results flagged for a closer look

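In 82 groups of 4 arrays (41 tested members, immature and LPS), 2 held an array far from the others, 2.44%, where chance gives about 1 group in 20. In Trim30d LPS replicate 3 was low at 3.38, with the other LPS arrays between 3.71 and 3.74. In Trim56 immature replicate 3 was high at 2.41, with the other immature arrays between 2.10 and 2.11.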

How the results depend on the processing

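Over 20 alternatives, 30 of the 41 tested members kept their side of the threshold wherever they were tested; 22 of these kept 1 sign and 8, never called, did not. Of the 24 called members 20 kept their call, 19 under all 20 and Trim69 under the 19 that tested it. The exceptions among called members are Trim28, Trim7, Trim24 and Trim3. No called member changed direction. The median difference over members moved from 0.27 to 0.099 with arrays scaled to their median and to 0.067 with no scaling. With no filter on dim probes 28 members rose and 10759 of all genes were called. The 10 added members were above background on no array, and such probes sit at the floor of the signal. Leaving out single arrays gave 17 to 21 members higher, 5 to 6 lower, a median of 0.23 to 0.33 and 6181 to 7899 of all genes called. Spike-in scaling ended the call of Trim28 (−0.38, limma adjusted p = 0.0741). Averaging replicates 1 and 2 ended those of Trim28 (−0.31, 0.125), Trim24 (0.38, 0.0585) and Trim7 (0.36, 0.0943), limma adjusted p second. Limma with trend and robust settings added Trim41 (0.15, limma adjusted p = 0.0487). With no scaling Trim27 was lower (−0.31, limma adjusted p = 0.0441). The cause of these changes was not tested. With the replicate number as a block (the replicate block) 18 members rose and 6 fell. Same-numbered arrays correlated at 0.19, 0.022, 0.051 and −0.10 in their deviations from the group means. Low correlations cannot show whether same-numbered samples shared an origin, and the labels do not say. Naming probes by accession alone is the setting used and was not run again. Signal over background limits the 23 untested members.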
